A study of Homo sapiens with 2 samples.

Results

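Cell junction genes were examined in the established NSCLC line H322c after treatment with the EGFR TKI gefitinib. The set comprised 38 genes chosen by name for the junction proteins they encode: 12 claudins, 6 other tight junction proteins, 5 adherens junction proteins, 11 desmosome proteins, 3 gap junction connexins and EPCAM. They were represented by 69 of the 41097 probe sets, groups of short oligonucleotides on the array, that were paired with exactly 1 gene. The control cells were cultured for 4 days with 0.1% DMSO and the treated cells for 4 days with 1 µM gefitinib, and both had been plated 24 hrs earlier in the same serum-containing RPMI medium. Total RNA of each culture was hybridized to 1 Affymetrix U133 Plus 2.0 array. With no replicates and hence no test, the differences describe these 2 arrays of 1 cell line.

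Epithelial cells are held together by several kinds of junction. Claudins and occludin seal the space between neighboring cells at tight junctions and are tied to the actin cytoskeleton by plaque proteins such as ZO-1. Classical cadherins bridge cells at adherens junctions through catenins, desmosomal cadherins link to keratin filaments through plakoglobin, plakophilins and desmoplakin, and connexins form channels that join the cytoplasm of adjacent cells at gap junctions. In airway epithelium these structures make the barrier, and the loss of E-cadherin together with a gain of N-cadherin is the classical sign of a shift toward a mesenchymal state.

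Most of the junction genes that could be measured differed little between the arrays. The values are signal intensities from the MAS5 program, and signals below 100 were set to 100, a floor that 61.6% of all probe sets lay under in the control and 60.4% in the treated cells. To count as measured, a gene needed a probe set that reached this floor on at least 1 array, and the brightest such probe set stood for it. By this rule 25 of the 38 genes were measured, 23 of them on both arrays. Only EVPL, which encodes a plaque protein of the desmosome, was at least 2-fold higher with gefitinib, against 13.3% of the 11223 measured genes of the array. Only CLDN15, a claudin that forms cation-selective pores, was at least 2-fold lower, against 6.20% of all measured genes. The split of these background shares depended on the scaling, from 9.42% higher and 9.25% lower with spike-in transcripts to 17.9% and 4.34% with GAPDH. Of the 23 genes measured on both arrays, 21 were within 2-fold and 12 within 1.2-fold, a range that held 30.5% of the 10190 genes measured on both arrays. CLDN1 and CDH2 were measured with gefitinib only, so that their folds are lower bounds. In RNA from whole cultures, fewer cells of a type and less RNA per cell cannot be told apart.

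The median log2 ratio of gefitinib over DMSO was 0.14 for the 25 measured junction genes, with CLDN1 and CDH2 at their bounds, and 0.12 for all measured genes. The middle 50% of the junction genes lay between -0.03 and 0.23, and that of all measured genes between -0.33 and 0.62. Large ratios were less frequent among bright transcripts. Of the junction genes, 19 had a signal of at least 1000 on both arrays, and none of these was past 2-fold in either direction. Their median log2 ratio was 0.14, against -0.04 for all genes at 1000 or more on both arrays. Of all 4783 genes that bright, 4.58% were at least 2-fold higher and 5.19% at least 2-fold lower. Within 1.2-fold were 12 of the 19 junction genes and 38.2% of the bright genes. Both shares past 2-fold were small in this range, so the count of 0 among the 19 lay near the level of bright genes in general.

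**Figure D1:**
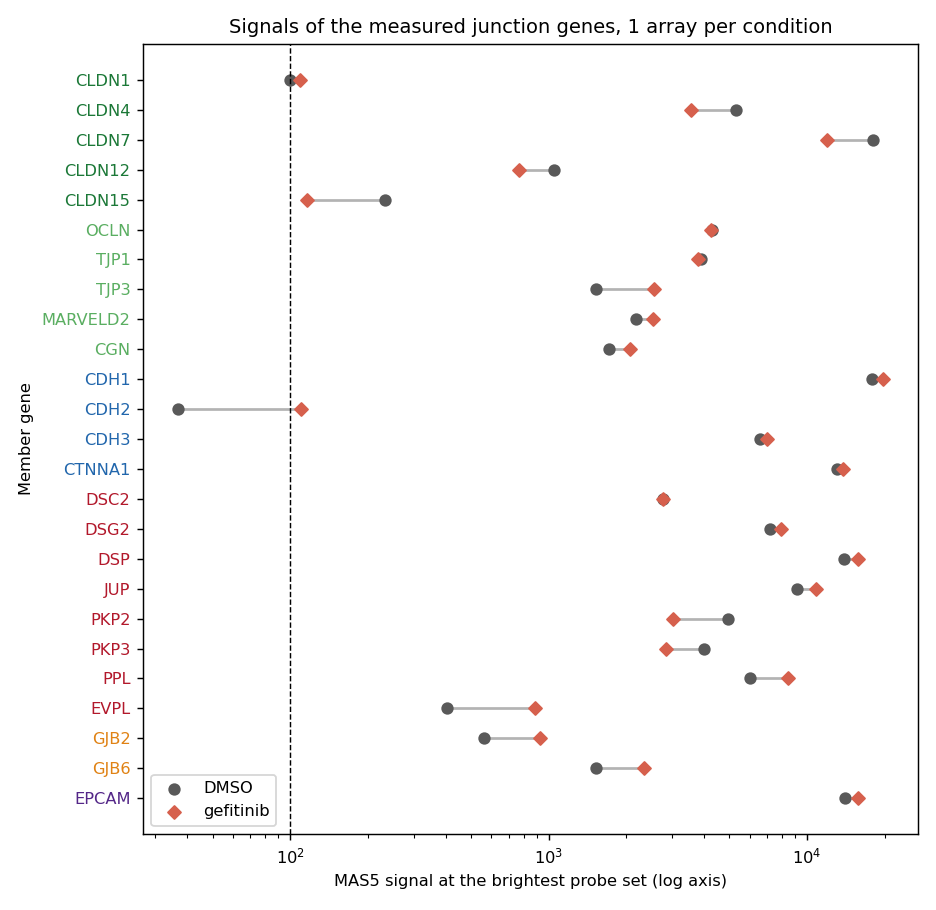
MAS5 signal (horizontal log axis) on the DMSO array (grey circles) and the gefitinib array (red diamonds) for the brightest probe set of each of the 25 measured junction genes, with 1 array for each. Signals left of the dashed line are under the floor of 100. The pairs of points for CDH1, CDH3, CTNNA1, OCLN, TJP1 and DSC2 nearly coincide, while those of EVPL and CLDN15 are the farthest apart among the pairs with both points at or above the floor.

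Values from 1 array can be set against the spread between probe sets of the same gene. Its SD was 0.58 on the log2 scale over 5432 genes with several measured probe sets, and 0.32 over the 11 junction genes with several. How far cultures vary was not measured. Scaling also bears on small differences. The arrays were therefore rescaled in 5 other ways. Above 0 under every scaling that measured them were 9 of the 25 genes, and 6 were below 0 under every scaling. The sign of 10 depended on the scaling. How many of all measured genes keep their sign was not counted, so these numbers have no background to be read against.

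The 6 that remained below 0 were CLDN4, CLDN7, CLDN12, CLDN15, PKP2 and PKP3, and the 9 above 0 were TJP3, MARVELD2, CGN, CDH2, JUP, PPL, EVPL, GJB2 and GJB6. CDH2 was under the floor with DMSO and was not measured with spike-in scaling. Its place above 0 thus follows largely from the floor and says little about its direction. Upstream sequences are shown for the 4 genes of these lists that differed by at least 1.4-fold, had a promoter in the reference table and whose window of 250 bases before the annotated start held no annotated gene. They give the reader the proximal promoters of a pair of claudins with lower signals (CLDN4 and CLDN7) beside those of a tight junction plaque protein and a connexin with higher signals (TJP3 and GJB2). CLDN15 and GJB6 met the other criteria but were left out, because their windows overlapped the annotation of CLDN15 and GJB6 themselves. The sequences are from RefSeq on build GRCh38.p14, each 5′ to 3′ on the gene's strand, and end at the base before the start. The windows are chr7:73830746-73830995 (plus strand) for CLDN4, chr17:7263214-7263463 (minus strand) for CLDN7, chr19:3708134-3708383 (plus strand) for TJP3 and chr13:20192939-20193188 (minus strand) for GJB2. Capitals mark the AP-1 motif TGANTCA, which reads the same on both strands apart from its center.
CLDN4: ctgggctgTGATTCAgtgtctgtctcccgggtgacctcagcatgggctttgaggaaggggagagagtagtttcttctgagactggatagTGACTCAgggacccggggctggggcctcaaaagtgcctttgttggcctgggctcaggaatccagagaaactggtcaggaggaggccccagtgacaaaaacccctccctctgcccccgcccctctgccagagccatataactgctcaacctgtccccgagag
CLDN7: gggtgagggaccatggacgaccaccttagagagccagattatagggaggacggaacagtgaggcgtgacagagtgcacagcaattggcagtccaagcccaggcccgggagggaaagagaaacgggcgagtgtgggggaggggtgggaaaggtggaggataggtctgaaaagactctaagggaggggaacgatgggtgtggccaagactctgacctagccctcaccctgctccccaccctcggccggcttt
TJP3: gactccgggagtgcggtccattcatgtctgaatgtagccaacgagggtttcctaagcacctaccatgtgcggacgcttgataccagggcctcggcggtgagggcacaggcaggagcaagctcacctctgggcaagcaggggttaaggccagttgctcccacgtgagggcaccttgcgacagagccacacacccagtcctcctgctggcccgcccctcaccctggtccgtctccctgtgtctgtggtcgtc
GJB2: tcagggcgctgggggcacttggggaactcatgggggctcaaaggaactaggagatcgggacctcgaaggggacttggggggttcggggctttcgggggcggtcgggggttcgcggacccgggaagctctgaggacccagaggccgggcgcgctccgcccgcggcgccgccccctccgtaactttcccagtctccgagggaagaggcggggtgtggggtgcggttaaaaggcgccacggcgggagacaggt

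The CLDN4 window held 2 AP-1 motifs, which start 242 and 161 bases before the gene, and the windows of CLDN7, TJP3 and GJB2 held none. The E-box CACCTG, or CAGGTG on the other strand, is bound by repressors such as the SNAI and ZEB proteins, and it was in none of the 4 windows. No promoter was available for CDH1, CDH3, EPCAM, EVPL, PPL, PKP2, PKP3, CLDN8, CLDN23, CTNND1 and F11R, so they were not searched for motifs. Of the 38 genes, 27 had a promoter in the reference table. The AP-1 motif was in 5 of these windows (CLDN2, CLDN4, CLDN15, CLDN16 and GJA1) and in 6.57% of the windows of 27305 genes. The E-box was in 6 (CLDN18, DSC2, DSG2, DSP, OCLN and TJP1) and in 17.5% of all windows. A match to these letters describes the sequence and does not show that a factor binds there.

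Of the 12 claudins, 5 were measured, and 4 of the 5 had lower signals with gefitinib. The share of all measured genes with lower signals was not counted, so this count has no background. CLDN7, one of the main claudins of airway epithelium, gave 18039.8 with DMSO and 11950.0 with gefitinib at 202790_at, 1.51-fold lower. CLDN4, a barrier-forming claudin found in the same epithelia, gave 5296.5 with DMSO and 3551.6 with gefitinib at 201428_at, 1.49-fold lower. CLDN12, a claudin without the usual C-terminal PDZ-binding motif, had 1051.9 with DMSO and 770.6 with gefitinib at 223249_at, 1.37-fold lower. These 3 genes kept a high or moderate signal on both arrays. Their log2 ratios of -0.59, -0.58 and -0.45 stayed between -0.78 and -0.27 over the scalings tried. In size these ratios lay near or within the SD of 0.58 between probe sets of a gene.

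CLDN15 was the claudin with the lowest ratio. At 219640_at it gave 233.3 in the control and 116.4 in the treated cells, 2.00-fold lower, so that it lay at the threshold and its lower signal lay close to the floor. It was within 2-fold after centring on control probe sets (-0.88) and after GAPDH scaling (-0.83). With a floor of 200 the log2 ratio became a bound of -0.22. Each of these 4 claudins had only 1 measured probe set, so that none of the ratios could be compared with another probe set of the gene. CLDN1, a claudin that is essential for the barrier of the skin, had 99.8 with DMSO and 109.0 with gefitinib at 222549_at. It was at least 1.09-fold higher, a bound from a signal just under the floor.

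The other 7 claudins were below the floor on both arrays at all of their probe sets. They were CLDN2, which forms cation and water channels, CLDN3, CLDN8, CLDN10, CLDN16, which is known for magnesium transport in the kidney, CLDN18, the claudin of alveolar and gastric epithelium, and CLDN23. Together with DSC3, DSG3, PKP1 and GJA1 they made up the 11 genes that were not measured although they had probe sets. The signals of their 22 probe sets ran from 0.6 to 63.9. CLDN3 lies next to CLDN4 on chromosome 7, with no other coding gene between them. On these arrays CLDN4 was measured and CLDN3 was not, with CLDN3 signals of 18.2 and 0.7 at 203953_s_at and 32.8 and 2.3 at 203954_x_at. CLDN1 and CLDN16 are neighbors on chromosome 3. CLDN16 lay under the floor, at 63.9 with DMSO and 6.5 with gefitinib.

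The tight junction strand and plaque proteins differed among themselves. OCLN, which encodes occludin, had 4300.7 with DMSO and 4245.3 with gefitinib at its brightest probe set, 227492_at, a log2 ratio of -0.02. At 209925_at and 231022_at its ratios were -0.21 and -0.44, so that none of its 3 measured probe sets was higher. A further OCLN probe set, 235937_at, was under the floor (76.4 and 92.1). MARVELD2, which encodes tricellulin, the protein of the points where 3 cells meet, had 2175.3 and 2534.4 at 235141_at, 1.17-fold higher, and a log2 ratio of -0.07 at 235955_at. These neighbors on chromosome 5 were both close to no difference. TJP1, which encodes the scaffold ZO-1, had 3883.0 and 3799.2 at 202011_at (log2 ratio -0.03) and was 1.45-fold lower at 214168_s_at.

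TJP3, which encodes the related scaffold ZO-3, had the highest ratio of the tight junction genes among the 38. At 35148_at it gave 1529.7 with DMSO and 2554.1 with gefitinib, 1.67-fold higher, and 1520.8 and 2117.0 at 213412_at, 1.39-fold higher. Both probe sets thus went the same way, and the ratio of the brighter one ran from 0.55 to 0.92 on the log2 scale over the scalings. CGN, which encodes the plaque protein cingulin, had 1719.0 and 2058.6 at 223233_s_at, a log2 ratio of 0.26, and was 1.05-fold higher at 223232_s_at. F11R, which encodes the adhesion molecule JAM-A, had no probe set paired with it alone and gave no value.

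**Figure D2:**
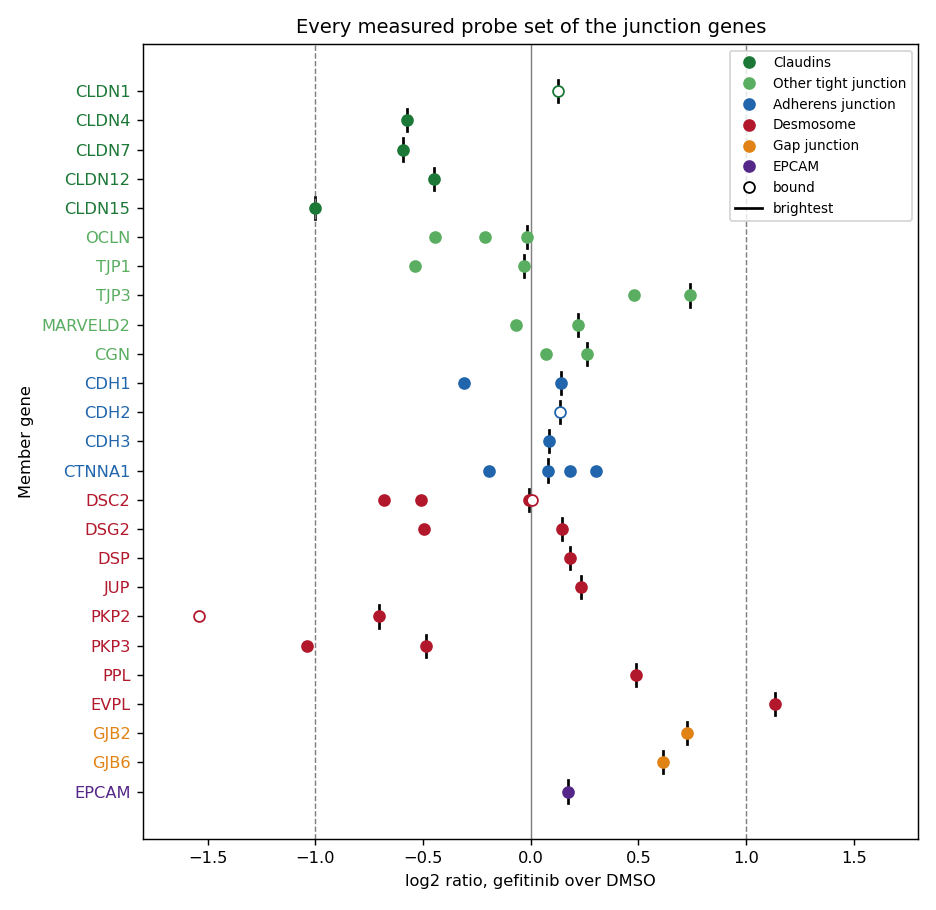
Log2 of the gefitinib signal over the DMSO signal (horizontal axis) at all 41 measured probe sets of the 25 junction genes, with 1 array for each condition. Open points are bounds with 1 signal under the floor, black bars mark the brightest probe set, colors mark the kind of junction and dashed lines mark 2-fold. The brightest probe sets of CLDN4, CLDN7, CLDN12, CLDN15, PKP2 and PKP3 lie to the left of 0, and those of TJP3, PPL, EVPL, GJB2 and GJB6 to the right.

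The 3 adherens junction genes measured on both arrays, CDH1, CDH3 and CTNNA1, had log2 ratios between 0.08 and 0.14 at their brightest probe sets. CDH1, which encodes E-cadherin, gave 17917.4 with DMSO and 19726.2 with gefitinib at 201131_s_at, a log2 ratio of 0.14. A far dimmer CDH1 probe set, 201130_s_at, had 233.7 and 188.5 (log2 ratio -0.31). CDH3, which encodes P-cadherin and lies beside CDH1 on chromosome 16, had 6602.2 and 7001.1 at 203256_at, a log2 ratio of 0.08. Both neighbors were within 1.2-fold under the deposited scaling, and with the arrays scaled to spike-in transcripts their log2 ratios were -0.05 and -0.10.

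CTNNA1, which encodes the α-catenin that connects cadherins to actin, had signals of 13052.6 and 13810.4 at 210844_x_at, a log2 ratio of 0.08. Its other measured probe sets were at 0.18 (200765_x_at), 0.30 (200764_s_at) and -0.19 (1558214_s_at). CDH2, which encodes N-cadherin, was below the floor with DMSO (36.9) and just above it with gefitinib (109.9) at 203440_at, at least 1.10-fold higher. A floor of 50 gave a log2 bound of 1.14, and without a floor, as log2 of the signal plus 50, the ratio was 0.88. Its other probe set, 203441_s_at, did not reach the floor (32.5 and 27.9), and CDH2 was not measured after spike-in scaling or with a floor of 200. CTNND1, which encodes p120-catenin, was only on 4 probe sets that also matched a readthrough transcript, and gave no value.

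EPCAM, an epithelial adhesion molecule that associates with CLDN7, had 14038.1 with DMSO and 15823.9 with gefitinib at 201839_s_at, 1.13-fold higher. Markers of epithelial and mesenchymal cells were measured beside these genes. Of 8 epithelial markers outside the junction set, the 7 with probe sets of their own were measured, with a summed signal of 124622 with DMSO and 96912 with gefitinib. The difference in the sum came from the keratins KRT18 (38923.3 and 22787.6, 1.71-fold lower) and KRT8 (30370.8 and 18382.6, 1.65-fold lower). ESRP1 was 1.27-fold and ELF3 1.21-fold lower, while KRT19 was 1.05-fold, KRT7 1.14-fold and the epithelial regulator GRHL2 2.99-fold higher. The direction of ELF3 depended on the probe set, as it was 1.44-fold higher at 201510_at and 1.22-fold higher at 229842_at, both dimmer. Of 12 mesenchymal markers 5 were measured, with a summed signal of 5983 with DMSO and 9797 with gefitinib over all 12. S100A4 held the largest part of both sums (3293.2 and 6596.6), and so of their difference. FN1, ZEB1 and ZEB2 reached the floor on neither array.

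The mesenchymal markers did not go 1 way. VIM, which encodes vimentin, was 1.53-fold lower (1164.7 and 763.3), and TWIST1 was 1.39-fold lower. SNAI2, a repressor of E-cadherin, was 3.66-fold higher (228.5 with DMSO and 835.3 with gefitinib), and S100A4 was 2.00-fold higher. COL1A1 was 2.26-fold higher at its brightest probe set, 1.10-fold higher at 217430_x_at and 2.97-fold higher at 202310_s_at. The part of these markers in the values of the cadherins was not tested. Of 4 leukocyte markers with probe sets, none was measured. The endothelial marker VWF was below the floor with DMSO and had 496.0 with gefitinib at 202112_at. Its other probe set, 233980_s_at, was under the floor on both arrays (6.8 and 6.3). PECAM1 was at least 1.28-fold lower at 1559921_at (128.4 and 78.0) and under the floor on both arrays at its other probe sets. KDR and TEK were below the floor.

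The desmosome genes included EVPL, past 2-fold higher, as well as PKP2 and PKP3 with lower signals. Of 11 genes 8 were measured. The desmosomal cadherin DSG2 had 7196.1 with DMSO and 7943.0 with gefitinib at 217901_at, 1.10-fold higher, and was 1.41-fold lower at 1553105_s_at, where it had 4514.1 and 3200.3. The direction of DSG2 therefore depended on the probe set. DSC2, its partner cadherin, had 2779.8 and 2762.4 at 226817_at, a log2 ratio of -0.01, with -0.68 at 204751_x_at and -0.51 at 204750_s_at. Another DSC2 probe set, 231033_at, reached the floor with gefitinib only (74.9 and 100.3).

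The cadherins of stratified epithelia were not measured. DSG3, the antigen of pemphigus vulgaris, and DSC3 had signals of at most 31.7 on either array. The desmosomal cadherins form a cluster on chromosome 18, where DSC3 lies next to DSC2 and DSG3 next to DSG2 with no coding gene between, and CDH2 lies on the other side of DSC3. In each of the DSC and DSG pairs the member of simple epithelia was measured and that of stratified epithelia was not.

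Of the intracellular plaque proteins, some had higher and some lower signals. Apart from EVPL and PKP2, their log2 ratios at the brightest probe set were within the SD of 0.58 between probe sets of a gene. PPL and PKP3 were also past the SD of 0.32 found over the junction genes. Neither SD measures how far arrays or cultures vary. DSP, the desmoplakin that binds keratin filaments, had 13874.8 with DMSO and 15748.8 with gefitinib at 200606_at, 1.14-fold higher. JUP, which encodes plakoglobin, a catenin shared by desmosomes and adherens junctions, had 9185.2 and 10801.4 at 201015_s_at, 1.18-fold higher. PPL, which encodes periplakin, had 6013.3 and 8432.7 at 203407_at, a log2 ratio of 0.49.

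EVPL, which encodes envoplakin, the partner of periplakin in the cornified envelope, had 405.1 with DMSO and 888.5 with gefitinib at 204503_at, 2.19-fold higher (log2 ratio 1.13). It was the only measured junction gene of the set past 2-fold higher as deposited, and its log2 ratio was 0.96 with quantile normalization, 0.94 with spike-in scaling and 0.94 with lowess correction. DSP, JUP, PPL and EVPL each had 1 measured probe set. DSP was above 0 under all scalings except that to the spike-in transcripts, where it was -0.01.

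The plakophilins, armadillo proteins that cluster desmosomal cadherins, went the other way. PKP2 had 4961.2 with DMSO and 3040.8 with gefitinib at 207717_s_at, 1.63-fold lower. At 214154_s_at it had 290.6 and 38.8, at least 2.91-fold lower. PKP3 had 3993.5 and 2849.4 at 209873_s_at, a log2 ratio of -0.49, and 638.0 and 310.0 at 209872_s_at, 2.06-fold lower.

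Both plakophilins were thus lower at both of their probe sets, with the larger difference at the dimmer one. Averaged over its probe sets the log2 ratio was -1.12 for PKP2 and -0.76 for PKP3. PKP1, the plakophilin of stratified epithelia, was not measured (6.3 and 17.4 at 205724_at). Over all 41 measured probe sets of the set, 1 was 2-fold or more higher and 3 were 2-fold or more lower. The background over 20172 measured probe sets was 12.1% higher and 7.26% lower.

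The gap junction genes that were measured had higher signals. GJB2, which encodes Cx26, had 560.7 with DMSO and 926.0 with gefitinib at 223278_at, 1.65-fold higher. GJB6, which encodes Cx30, had 1526.0 and 2336.0 at 231771_at, 1.53-fold higher. They are neighbors on chromosome 13 with no coding gene between, and their log2 ratios of 0.72 and 0.61 lay between 0.43 and 0.90 over the scalings. GJA1, which encodes Cx43, the most widespread connexin, was below the floor on both arrays (17.4 and 35.1).

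**Figure D3:**
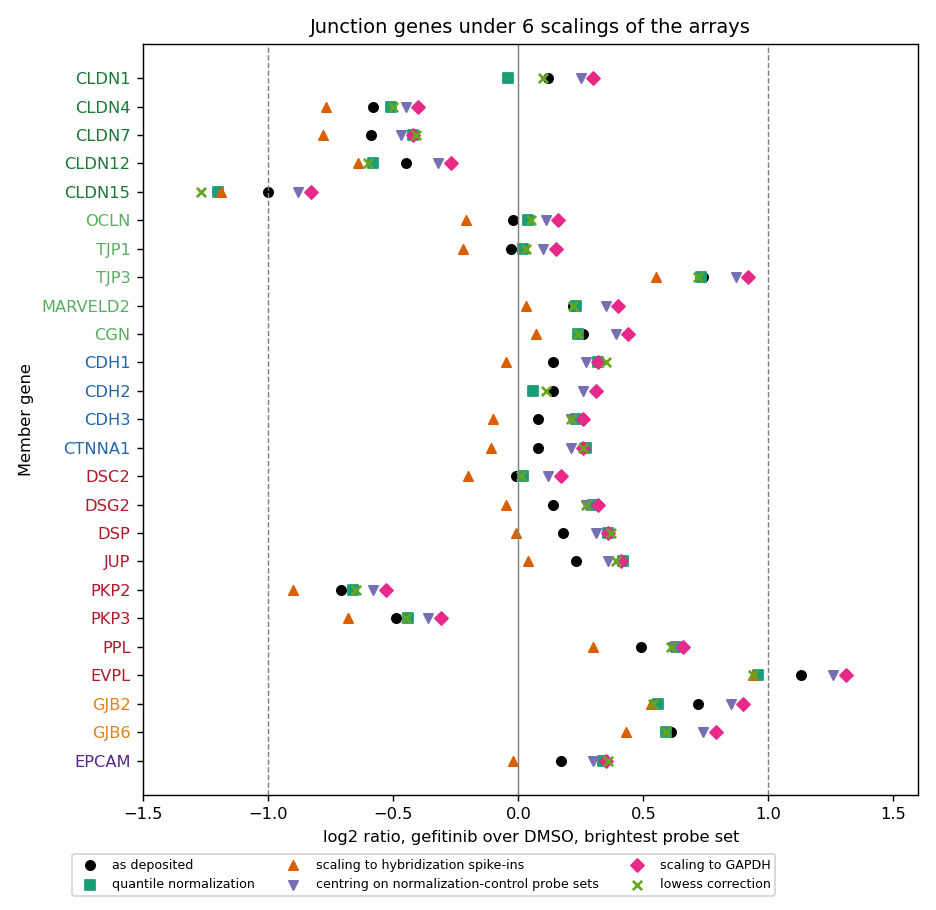
Log2 of the gefitinib signal over the DMSO signal (horizontal axis) at the brightest probe set of each of the 25 measured junction genes under the deposited scaling and 5 others, 1 array per condition; dashed lines mark 2-fold. CLDN1 and CDH2 have no point for spike-in scaling because they were not measured there. CLDN15 crosses the lower dashed line and EVPL the upper one between scalings, and OCLN, TJP1 and DSC2 straddle 0.

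A list of 67 other junction genes was set beside the 38. Of these, 28 were measured, 26 were below the floor and 13 had no probe set of their own. At least 2-fold higher were 4 of the 28 and at least 2-fold lower were 2, which can be read against the 13.3% and 6.20% of all measured genes. Their median log2 ratio was 0.22. The highest was PARD6B, a component of the polarity complex that positions tight junctions, with 314.7 with DMSO and 1330.7 with gefitinib at 235165_at, 4.23-fold higher.

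CLDN9 had 164.0 and 419.2 at 214635_at, 2.56-fold higher, and CLDN19, the other measured claudin of this list, had 185.5 and 108.4 at 1554804_a_at, 1.71-fold lower. CLDN9 thus differed in direction from CLDN4, CLDN7, CLDN12, CLDN15 and CLDN19. PANX2, a channel protein related in structure to connexins, was 2.49-fold higher at 239067_s_at (380.4 and 947.1). NECTIN3, an adhesion molecule of adherens junctions, was 2.17-fold higher at 213325_at (336.3 and 730.8) but 2.06-fold lower at 227503_at. As the mean over both probe sets the log2 ratio of NECTIN3 was 0.04.

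The lowest was GJB5, which encodes Cx31.1, with 1701.3 with DMSO and 574.7 with gefitinib at 206156_at, 2.96-fold lower. GJB2 and GJB6 were higher and GJB5 lower under all scalings tried. GJC1, the other measured connexin, had 744.5 and 725.8 at 228776_at (log2 ratio -0.04) and -0.48 at 208460_at. NECTIN4 had 3504.0 and 1683.4 at 223540_at, 2.08-fold lower. It was within 2-fold after centring on control probe sets and after GAPDH scaling, with a log2 ratio as high as -0.88. CTNNB1, which encodes β-catenin, the partner of CDH1 and CTNNA1, had 8983.8 and 5055.4 at 201533_at, 1.78-fold lower, and log2 ratios of 0.40 and -0.03 at a pair of dimmer probe sets.

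**Figure D4:**
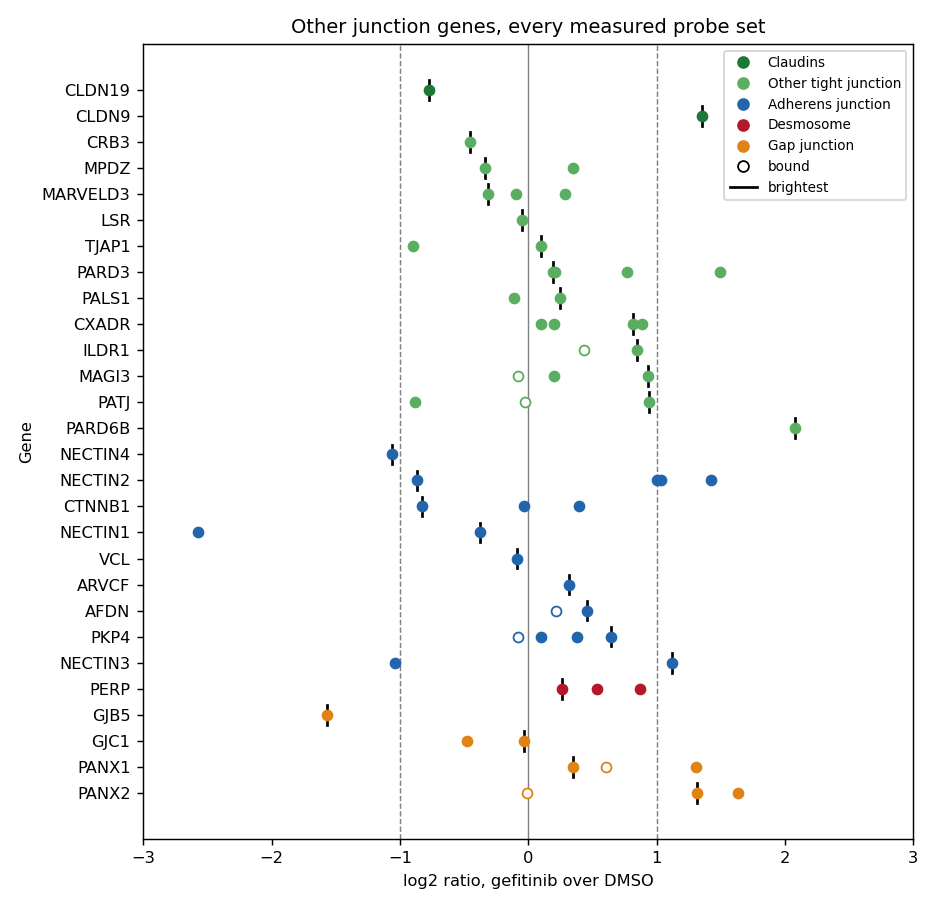
Log2 of the gefitinib signal over the DMSO signal (horizontal axis) for every measured probe set of the 28 other junction genes, with 1 array for each condition. Open points are bounds with 1 signal under the floor, black bars mark the brightest probe set and dashed lines mark 2-fold. PARD6B is farthest to the right and GJB5 farthest to the left among the brightest probe sets, and the probe sets of NECTIN2 and NECTIN3 lie on both sides of 0.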

How the data were processed

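RNA of H322c cells was measured on 2 Affymetrix U133 Plus 2.0 arrays, 1 per condition, and conditions were taken from the sample labels. The authors deposited signal intensities on a linear scale, made with MAS5 per the submitters' processing notes (the version was not given in the sources used here). The program subtracts background, corrects for mismatch probes and scales each array by 1 factor, and the 2% trimmed mean was 500 on both arrays. This scaling can hide a shift common to most transcripts. Of 54675 probe sets, the platform annotation paired 41097 with 1 gene, 1801 with several and 11777 were not listed. Symbols were updated by gene identifier (41043 matched, GRCh38.p14).

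Signals under 100 were set to 100, and each gene took its log2 ratio (gefitinib over DMSO) from its brightest probe set by mean log2 signal. A difference was counted from 2-fold. Folds against a signal under the floor are bounds. No p-value was computed. The text accounts for every member, gives each measured probe set of members past 2-fold or with probe sets of opposite sign, and names up to 4 other junction genes past 2-fold in each direction. CTNNB1, CLDN19, GJC1, the markers, NECTIN1 and NECTIN2 were named after their values were seen, and so were the signal limit of 1000, the 1.2-fold range and the motifs chosen. The members and lists were chosen with earlier results of these data known. The procedure was also run on data simulated from the DMSO array with known folds. That simulation had less noise than the spread between probe sets here and no shift in scaling. It checks the computation and not the reliability of the values. Alternatives were quantile normalization, scaling to 18 spike-in probe sets, to 100 normalization-control probe sets or to GAPDH, lowess correction (span 0.3), floors of 50 and 200, log2 of signal plus 50, the mean over probe sets, leaving out _x_at and _s_at probe sets, and thresholds of 1.5 and 3. Computations ran in Python 3.11.15 with pandas 2.3.3, numpy 2.4.6 and scipy 1.17.1; statsmodels 0.14.6 gave the lowess fit and matplotlib 3.10.9 the plots.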

Additional observations from a re-analysis of the deposited data

How the results depend on the processing

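The number of arrays limits the precision, and genes near the floor have the least. The number of junction genes at least 2-fold higher was 1 as deposited (EVPL), 0 with quantile normalization, spike-in scaling, lowess correction or a threshold of 3-fold, 2 with a floor of 50 and 4 at 1.5-fold. The number at least 2-fold lower was 1 as deposited (CLDN15), 0 when centred on control probe sets, scaled to GAPDH, with a floor of 200, as log2 of the signal plus 50 or at 3-fold, 2 with the mean over probe sets and 3 at 1.5-fold. Their median log2 ratio ran from -0.05 (spike-in scaling) to 0.31 (GAPDH). The median of all measured genes ran from -0.07 to 0.28 over the same scalings. Of the other junction genes, 4 were higher as deposited, 7 with GAPDH scaling, 2 with the mean over probe sets, 9 at 1.5-fold and 1 at 3-fold. Of these genes, 2 were lower as deposited, 4 with spike-in scaling, 1 with control probe sets or GAPDH, 5 at 1.5-fold and 0 at 3-fold. Of 299 single-gene values under the alternatives, 295 moved by less than 0.58 in log2 ratio and none of a gene past 2-fold turned its sign. The 4 that moved more were CDH2 (1.14 and 0.88 with a floor of 50 and with log2 of the signal plus 50), CLDN15 (-0.22 with a floor of 200) and NECTIN3 (0.04 with the mean over probe sets). The causes were not tested. No paired analysis was possible because each condition had 1 array.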

Other observations

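Among the other junction genes, probe sets of a single nectin gene gave different values. NECTIN2 was 1.82-fold lower at its brightest probe set, 203149_at (1716.6 with DMSO and 942.1 with gefitinib). It was 2.05-fold higher at 225418_at (612.5 and 1253.6), 2.01-fold higher at 232078_at and 2.68-fold higher at 232079_s_at. NECTIN1 had a log2 ratio of -0.37 at 225211_at and was 5.94-fold lower at 211846_s_at (852.4 and 143.6). Of the 19 other junction genes with several measured probe sets, 11 had probe sets on both sides of 0 at 2 decimals of the log2 ratio, and 4 of the 11 members of the junction set with several did. PANX2, PKP4 and MAGI3 were counted only through a bound near 0, of -0.01, -0.08 and -0.08. The share over all genes with several measured probe sets was not computed, so these counts have no background to be read against. The counts of genes past 2-fold at the brightest probe set do not show such differences within a gene.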
